A study of Sus scrofa domesticus with 28 samples.

Results

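The comparison set early scar against control skin of red Duroc pigs, a breed whose deep skin wounds heal with thick raised scars. Its members were the 8 biopsies titled early_sham and the 4 titled control, 12 of the 28 biopsies of the series. All came from juvenile castrated male pigs, numbered 49 and 50, and each array held the RNA of 1 biopsy. Control skin was sampled on the right and left side of each pig. Early scar was sampled once per side and pig as hyper scar and once as hypo scar, which the study's title ties to too much and too little pigment. The early scars were all labelled sham, the arm without pressure treatment. All early titles carry the number 49, with no unit, so the age of the scar is not known here. A title code, a1 in every hyper and a3 in every hypo biopsy, has no stated meaning, so what it marks cannot be told apart from pigmentation. The 8 mid and late sham scars, called later scar below, served as a further comparison.

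A scar forms when a deep wound is filled by granulation tissue. Fibroblasts migrate in, turn partly into contractile myofibroblasts and lay down collagen and proteoglycans, new vessels grow, and macrophages clear debris. Transforming growth factor beta drives much of the matrix production. Intact skin in turn holds a stratified epidermis with hair follicles, sweat glands, sebaceous glands and pigment cells, and fat lies beneath. Hypertrophic scar lacks most appendages, which deep wounds do not restore.

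Each value is the log2 ratio of a biopsy's Cy5 signal to the Cy3 signal of 1 universal pig reference RNA, so it ranks arrays for a gene and not genes against each other. Differences are early minus control in log2 units ± SE from 1 limma fit to the 28 arrays with the animal as a block, and p is Benjamini-Hochberg adjusted over 18766 tested features, of which 2606 carry a gene symbol. Local backgrounds were capped within each array before subtraction. For genes of early scar against control skin, a call that did not hold without that background cap is named as such. A gene rose or fell only where adjusted p was below 0.05. With 2 pigs, p measures the spread between biopsies and not between animals. The scanner program's flag put 41.5 to 55.7% of 43603 probes per array well above background in Cy5. Over all tested features the arrays correlated at 0.906 to 0.954 within control skin, 0.83 to 0.954 within early scar and 0.637 to 0.780 between them. The labelled tissue was borne out in control skin, where the keratinocyte genes CDSN and IVL were well above background on all 4 arrays. In early scar CDSN was so on 7 of 8 arrays and IVL on 7 of 8. In whole biopsies, fewer cells of a type and less RNA per cell cannot be told apart.

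Of the 18766 features 7293, or 38.9%, differed between early scar and control skin. Of these 4526 (24.1% of all tested) were higher and 2767 (14.7%) lower in scar. Among genes with a symbol the shares were 19.2% higher and 19.9% lower, 501 and 518 genes, and these shares are the background for the counts of gene lists below. The median difference was 0.11 over all features and 0.06 over genes with a symbol. In 1969 called features the difference was at least 2-fold, 1175 higher and 794 lower. On 15.9% of features every early array lay above every control array, and on 10.8% every early array lay below. Centring each array on its median in place of loess gave 2862 higher and 3157 lower, 47.5% higher against 62.1%, so the balance of higher and lower calls depends on the scaling. The genes named below are mainly those with the 12 largest rises and 12 largest falls, and the 4 of lowest p in each gene list.

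**Figure D1:**
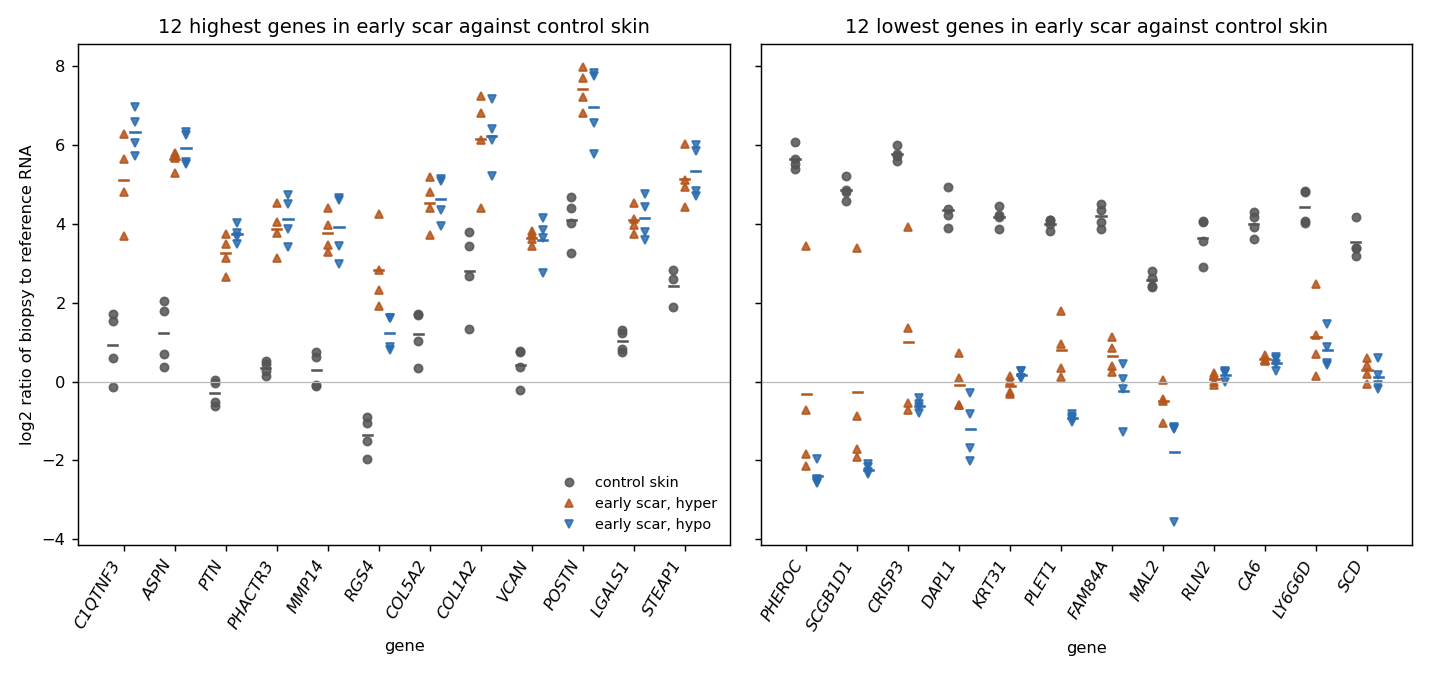
Log2 ratio of biopsy to reference RNA for the 12 highest (left) and 12 lowest (right) named genes of early scar against control skin, with 1 point per array (4 control, 4 early hyper, 4 early hypo) and a short line at each group mean. On the left every early array lies above every control array, as for ASPN (5.29 to 6.34 against 0.37 to 2.05), and on the right every early array lies below.

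Of the 12 highest genes 6 were in the matrix lists (ASPN, MMP14, COL5A2, COL1A2, VCAN and POSTN). C1QTNF3, which encodes a secreted C1q/TNF-related protein, stood at -0.13, 0.61, 1.55 and 1.72 in control skin and between 3.68 and 6.97 (median 5.89) in early scar. Its difference was the highest of the named genes, 4.78 ± 0.71 or 27.5-fold (adjusted p = 2.98e-05). ASPN encodes asporin, a small proteoglycan that binds collagen. Control arrays read 0.37, 0.71, 1.78 and 2.05 and early arrays 5.29 to 6.34 (median 5.73). That gap of more than 3 log2 units between the groups gave 4.55 ± 0.51 (23.4-fold, adjusted p = 1.5e-06). All 3 measured small leucine-rich proteoglycans rose, the others being DCN (decorin, 2.51 ± 0.40) and LUM (lumican, 2.02 ± 0.31), with a list median of 2.51.

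Of 4 measured fibrillar collagen chains 3 rose, with a list median of 3.16. COL1A2, a chain of type I collagen, the main collagen of dermis and scar, read 1.35, 2.67, 3.43 and 3.80 in control skin and 4.41 to 7.25 (median 6.26) in scar, a difference of 3.38 ± 0.66 (adjusted p = 0.000456). The lowest early array was hyper scar of the left side of pig 50, still above the highest control array. COL5A2 (3.38 ± 0.46) and COL5A1 (2.94 ± 0.42), chains of the type V collagen that seeds fibrils, rose as well. The Cy3 signal of COL5A1, net of background, was also higher, 115 to 140.5 on control arrays and 368 to 929.5 on early arrays. COL5A3 did not pass, at 0.30 ± 0.17 (adjusted p = 0.175). Each of the 5 measured genes for collagen folding and crosslinking rose, with a median of 2.18. They were the collagen-binding glycoprotein gene SPARC (2.82 ± 0.55), the prolyl isomerase FKBP10 (2.82 ± 0.34), the crosslinking enzyme LOX (2.18 ± 0.43), the prolyl hydroxylase subunit P4HA1 (2.15 ± 0.26) and the collagen chaperone SERPINH1 (1.98 ± 0.33). LOX and the next 2 genes are named after their values were seen: COL8A1, a network-forming collagen chain, rose by 2.79 ± 0.55, and FBN1, the fibrillin of elastic fibres, by 1.40 ± 0.25. FBN1 did not pass without the background cap. The collagen and collagen-processing counts were the same in every one of the 12 fits that left out 1 array.

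Hyaluronan is a long sugar chain that swells the matrix of young scars. SHAS2, the pig symbol for hyaluronan synthase 2, stood at 0.31, 0.34, 1.0 and 1.14 in control skin and 2.92 to 4.49 (median 3.39) in scar, and rose by 2.82 ± 0.40. HAS3, the synthase typical of keratinocytes, fell by 1.59 ± 0.20 (adjusted p = 4.71e-06). It was well above background on 4 of 4 control arrays and 1 of 8 early arrays. Among 10 measured genes of hyaluronan and large proteoglycans 5 rose and 1 fell, with a median of 0.49. VCAN, the hyaluronan-binding proteoglycan versican, rose by 3.20 ± 0.41 and ACAN, aggrecan of cartilage, by 2.13 ± 0.55, a call lost without the background cap. In that setting 3 of the 10 rose. Of 7 matrix glycoproteins 3 rose. POSTN, periostin, read 3.27, 4.02, 4.40 and 4.67 in control skin against 5.78 to 7.99 (median 7.47) in scar, so the groups did not overlap. Its difference was 3.11 ± 0.44, beside 2.21 ± 0.52 for tenascin TNC and 1.94 ± 0.44 for thrombospondin THBS1.

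Of 17 measured proteases and protease inhibitors 9 rose and the other 8 did not pass, and the median was 1.30. MMP14, the membrane-bound protease that activates other matrix metalloproteinases, stood at -0.11, -0.09, 0.62 and 0.74 in control skin and 2.98 to 4.65 (median 3.72) in scar, 3.56 ± 0.41 apart (adjusted p = 2.88e-06). MMP11, stromelysin 3, rose by 2.85 ± 0.36 and was well above background on 3 of 4 control arrays and all 8 early arrays. The metalloproteinase inhibitors TIMP2 (2.04 ± 0.26) and TIMP1 (1.85 ± 0.29, 1 early spot missing) also rose. Among 9 integrins and matrix receptors 5 rose and 2 fell. ITGB1, the beta subunit shared by most collagen and fibronectin receptors, had nearly the same level on the 8 early arrays, 1.68 to 1.99 (median 1.90), against -0.65, -0.50, -0.45 and -0.32 in control skin. The difference was 2.35 ± 0.18 (adjusted p = 1.85e-08). ITGAV, the subunit of receptors that free TGF-beta from its latent form, rose by 1.42 ± 0.24, and the epithelial collagen receptor DDR1 fell by 0.82 ± 0.15. With median centring 3 integrins rose.

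Ligands of the TGF-beta family split. Of 23 measured genes of the pathway 5 rose and 5 fell, near the background shares, with a median of -0.21. TGFB3 read -0.31, 0.49, 1.05 and 1.17 in control skin and 2.27 to 3.35 (median 2.52) in scar and rose by 2.0 ± 0.32. TGFB1 ran from -1.90 to -1.39 on control arrays and from -0.60 to 0.24 on early arrays, and rose by 1.33 ± 0.23. The other genes that rose, named after their values were seen, were CTGF, a matrix-associated target of the pathway (2.58 ± 0.46), the endothelial co-receptor ENG (1.08 ± 0.23) and the common mediator SMAD4 (0.41 ± 0.13). The ligands BMP2 (-1.24 ± 0.18) and BMP4 (-1.37 ± 0.15) fell, and BMP4 was not well above background on any early array. Its measured bound was at least 2.41-fold lower. BMP7 (-1.16 ± 0.23), the target ID2 (-1.44 ± 0.44) and the inhibitory SMAD7 (-0.84 ± 0.20), also named after their values were seen, fell. SMAD4, ID2 and SMAD7 did not pass without the background cap. With median centring 9 of the 23 fell and 5 rose.

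Fibroblast genes rose in 5 of 9 cases, and the other 4 did not pass (median 0.91). The mesenchymal cadherin CDH11 read 0.06, 0.64, 0.64 and 0.66 in control skin and 3.0 to 3.95 (median 3.48) in scar, a rise of 2.97 ± 0.35. CRABP1, a retinoic acid binding protein of some dermal fibroblasts, rose by 2.98 ± 0.46. THY1 (0.81 ± 0.16) and DPP4 (1.06 ± 0.25) rose less. LGALS1, the sugar-binding galectin 1, was among the 12 highest named genes, at 0.76, 0.83, 1.22 and 1.31 in control skin and 3.58 to 4.76 (median 4.04) in scar (3.08 ± 0.28, adjusted p = 1.31e-07). Genes of myofibroblasts, smooth muscle and pericytes showed no common direction. Of 10 measured 2 rose and 1 fell (1 rose without the control array of the right side of pig 50, and 2 fell without hypo scar of the left side of pig 50), and the median was 0.21 or, with median centring, -0.25. ACTA2, the smooth muscle actin that defines myofibroblasts, did not pass. It stood at 0.01, 0.06, 0.20 and 0.39 in control skin and -1.23 to 0.26 (median -0.47) in scar, -0.66 ± 0.27 (adjusted p = 0.0598), and the groups overlapped through 1 hypo array. CNN1, the smooth muscle calponin, fell by 1.91 ± 0.32 with every early array below control, and the pericyte gene RGS5 rose by 1.12 ± 0.28. THY1 and RGS5 did not pass without the background cap.

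Other genes among the 12 highest lay outside the matrix lists or crossed them. PTN, the heparin-binding growth factor pleiotrophin, stood at -0.63, -0.52, -0.03 and 0.04 in control skin and 2.66 to 4.01 (median 3.58) in scar (3.78 ± 0.59, adjusted p = 5.41e-05). PHACTR3, a regulator of actin and of protein phosphatase 1, rose by 3.66 ± 0.55. STEAP1, a membrane protein of the metalloreductase family, rose by 3.01 ± 0.66 with 1 control spot missing, and did not pass without the background cap. RGS4, a brake on G protein signalling, rose by 3.39 ± 0.40 and was well above background on 2 of 4 control and all 8 early arrays. Its values were 1.93, 2.33, 2.83 and 4.26 in hyper scar and 0.80, 0.87, 1.60 and 1.61 in hypo scar, so that each hyper array lay above each hypo array. The difference between hyper and hypo scar did not pass (adjusted p = 0.998). How often hyper and hypo arrays did not overlap over all features was not counted, which also limits the genes shown this way below.

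Genes of protein secretion were higher. Of 20 measured genes of the endoplasmic reticulum and secretory route 14 rose and the other 6 did not pass, with a median of 0.56 against 0.11 over all features. TMED3, which sorts cargo into vesicles, rose by 1.36 ± 0.29. The chaperone HSP90B1 stood at -1.71, -1.37, -1.29 and -1.22 in control skin and -0.82 to 0.14 (median -0.22) in scar (1.12 ± 0.15, adjusted p = 1.28e-05). RPN1, a subunit of the enzyme that attaches sugar chains to new proteins, rose by 1.06 ± 0.18, and SAR1A, the GTPase of export vesicles, by 0.95 ± 0.17. With median centring 2 of the 20 rose, without HSP90B1 and SAR1A, and TMED3 did not pass without the background cap. Lysosomal genes rose in 10 of 20 cases and fell in 1, with a median of 0.85. CTSK, the collagen-degrading cathepsin K, read 1.34, 1.37, 1.99 and 2.20 in control skin and 3.40 to 4.78 (median 4.10) in scar (2.38 ± 0.44). The cholesterol carrier NPC2 rose by 1.96 ± 0.28 and the protective protein CTSA by 1.40 ± 0.26. LAMP2, of the lysosomal membrane, was the gene that fell (-0.92 ± 0.15). With median centring 4 of the 20 rose and CTSA did not pass.

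**Figure D2:**
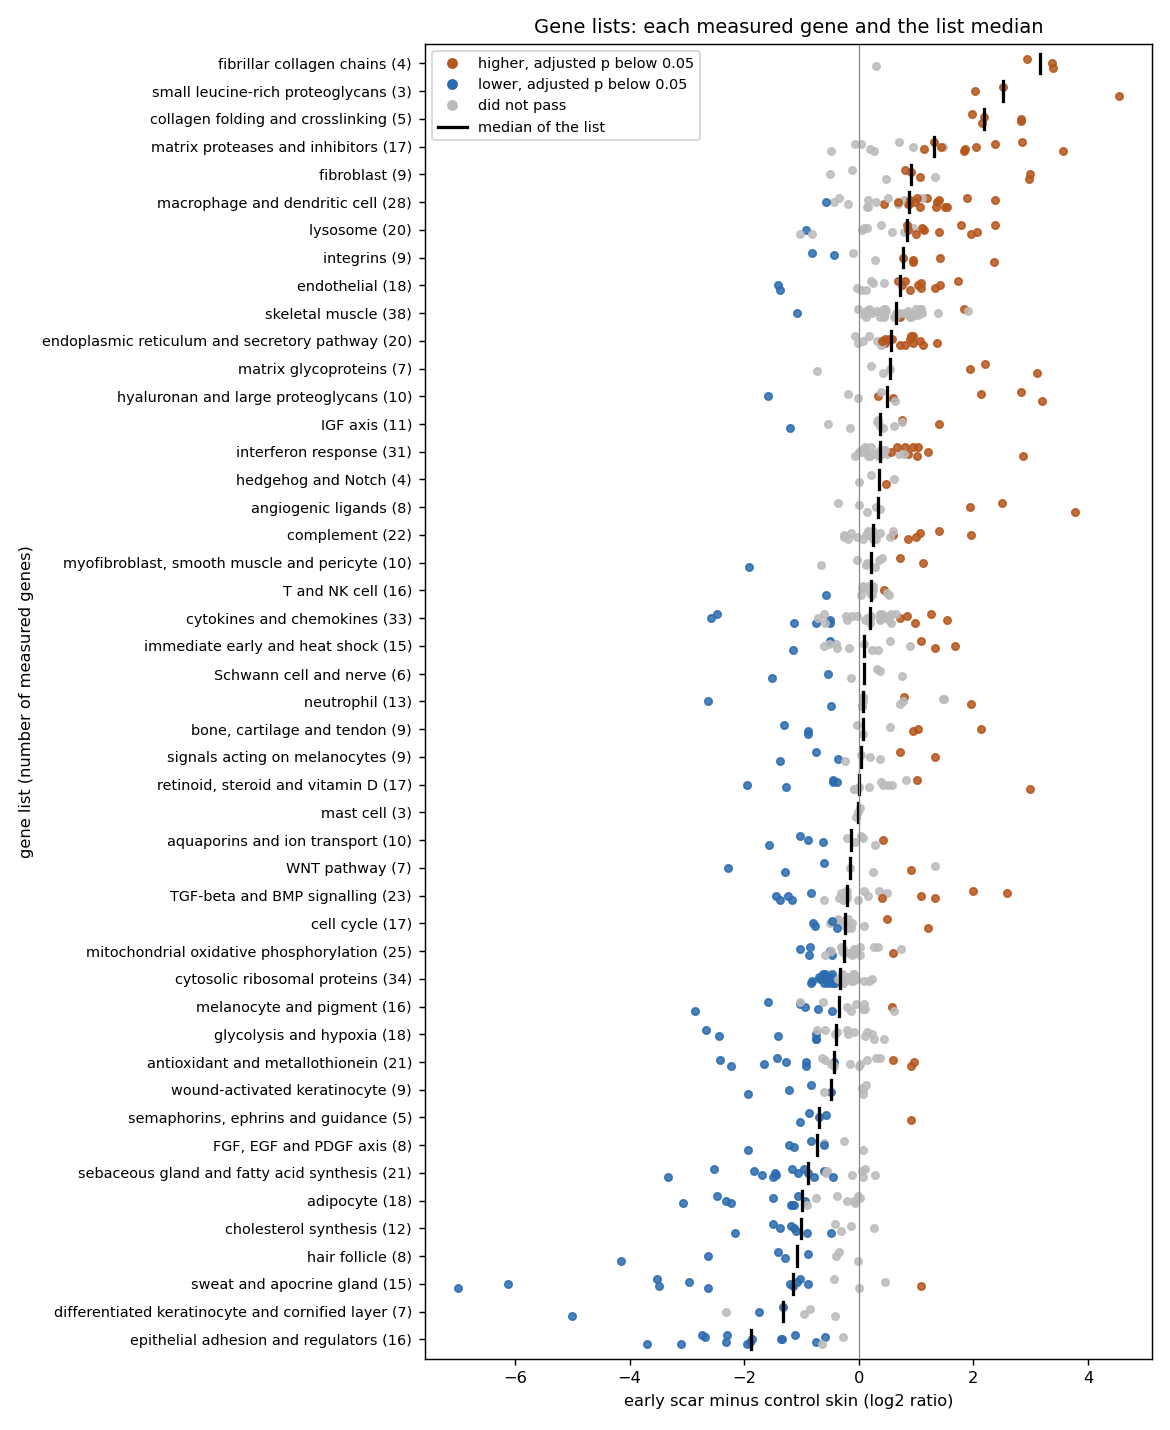
Difference of early scar minus control skin (log2 ratio, horizontal axis) for each measured gene of the lists with at least 3 measured genes, sorted by the list median (black bar). Points are coloured where adjusted p was below 0.05, and the fibrillar collagen list lies at the top with a median of 3.16, the matrix glycoproteins (0.54) and the hyaluronan list (0.49) lie below the fibroblast list (0.91), and the epithelial adhesion list lies at the bottom with -1.88.

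Blood vessel genes rose in 10 of 18 cases and fell in 2, with a median of 0.71. SELP, the adhesion molecule P-selectin of activated endothelium, stood at -1.45, -1.17, -0.66 and -0.61 in control skin and -0.10 to 1.64 (median 0.73) in scar (1.73 ± 0.29, adjusted p = 0.000115). ANGPT2, which loosens vessels for sprouting, rose by 1.42 ± 0.21, and VWF, von Willebrand factor, by 1.33 ± 0.23. The protein C receptor PROCR fell by 1.38 ± 0.15, and each early array lay below each control array. Without the control array of the left side of pig 50, 5 of the 18 rose, and with median centring 6. Without the background cap ANGPT2 and ANGPTL2 did not pass. Of 8 angiogenic ligands 3 rose: PTN, THBS1 and ANGPTL2, an angiopoietin-like secreted protein (2.50 ± 0.44). ANGPT1, the stabilising ligand of the same receptor as ANGPT2, did not pass (0.38 ± 0.20, adjusted p = 0.136).

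Genes of macrophages and dendritic cells rose in 16 of 28 cases and fell in 1, with a median of 0.87. FCGR3A, an antibody receptor, read -2.28, -2.02, -1.99 and -1.53 in control skin, -0.91, -0.87, -0.72 and -0.52 in hyper scar and -0.37, -0.29, -0.24 and 0.30 in hypo scar. Every early array lay above every control array (1.50 ± 0.26, adjusted p = 0.000147). The antigen-presenting genes SLA-DQA1 (1.36 ± 0.30) and SLA-DQB1 (1.19 ± 0.27) rose, although near-identical copies of these genes can share a probe. The chains of complement C1q, made by macrophages, rose by 0.85 ± 0.20 for C1QA, 1.39 ± 0.36 for C1QB and 1.07 ± 0.32 for C1QC. With median centring 5 of the 28 rose and the 3 C1q chains and SLA-DQB1 did not pass. Among genes of other leukocytes few passed. Of 16 T and natural killer cell genes 1 rose, CXCR6 at 0.44 ± 0.16, and 1 fell, CD247 at -0.58 ± 0.21. CXCR6 was not well above background on any control array, with a bound of at least 1.39-fold higher. Neither call held in every fit that left out 1 array. The 3 mast cell genes lay between -0.05 and 0.02 and did not pass, and of 13 neutrophil genes 2 rose and 2 fell. The neutrophil counts were unstable: with 1 array left out 0 to 3 rose and 1 to 2 fell, with the lowest count of rises without the control array of the left side of pig 50, and with the 12 arrays alone 5 rose.

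Among 33 cytokines and chemokines 5 rose and 6 fell, shares near the background. CCL8, a chemokine that attracts monocytes, rose by 1.55 ± 0.31 with 1 early spot missing, and was well above background on 1 of 4 control arrays and all 8 early arrays. It did not pass without the background cap. The epithelial chemokines fell. CCL28, secreted by glands and mucosa, stood at 1.94, 2.13, 2.36 and 2.41 in control skin and -1.37 to 0.13 (median -0.21) in scar (-2.58 ± 0.35, adjusted p = 1.14e-05). CCL27, made by keratinocytes to attract skin-homing T cells, read 4.07, 4.33, 4.37 and 4.41 in control skin, 2.44, 2.49, 2.52 and 3.18 in hyper scar and 0.28, 0.91, 0.92 and 1.85 in hypo scar, and fell by 2.47 ± 0.37 over both kinds. IL1A, an alarm cytokine of keratinocytes, fell by 0.74 ± 0.13. Without the control array of the right side of pig 49, or that of the left side of pig 50, 3 of the 33 rose. Complement genes rose in 6 of 22 cases and the other 16 did not pass, with a median of 0.25. Without the control array of the left side of pig 50 the count was 3, and with median centring 2 fell and the other 20 did not pass. Interferon response genes rose in 9 of 31 cases and the other 22 did not pass (median 0.37), and 3 rose with median centring. IFI30, a thiol reductase of antigen processing, gave the largest difference of that list, from -0.97, -0.84, -0.54 and -0.39 in control skin to 2.01 to 2.56 (median 2.11) in scar (2.86 ± 0.30, adjusted p = 6.76e-07). The antiviral kinase EIF2AK2 rose by 0.85 ± 0.16.

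Epithelial adhesion genes were lower in scar. Of 16 measured genes of epithelial adhesion and its regulators 14 fell and the other 2 did not pass, with a median of -1.88. In 14 of the 16 each early array lay below each control array, which held for 10.8% of all features. The count was 14 in all 12 fits that left out 1 array. MAL2, a protein of apical transport, stood at 2.40, 2.43, 2.64 and 2.80 in control skin and -3.57 to 0.03 (median -1.10) in scar (-3.70 ± 0.45, adjusted p = 4.08e-06). The lowest of these arrays was hypo scar of the left side of pig 50. EPCAM, an epithelial adhesion molecule probed 16 times with all probes lower, read -0.86, -0.79, -0.29 and -0.22 in control skin, -3.32, -2.47, -2.10 and -2.10 in hyper scar and -4.44, -4.05, -3.78 and -3.58 in hypo scar, a fall of 2.69 ± 0.30. The tight junction genes OCLN (-1.90 ± 0.21) and CLDN4 (-1.86 ± 0.15) fell, and CLDN4 was well above background on 2 of 8 early arrays. The transcription factors TFAP2B (-1.12 ± 0.12), GATA3 (-1.95 ± 0.41) and TFAP2C (-1.36 ± 0.42) fell. TFAP2C did not pass in the deposited value table or with the slide as a fixed block.

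Of 7 genes of differentiated keratinocytes 3 fell and the other 4 did not pass (median -1.33), and 5 fell without the background cap, with median centring or with the 12 arrays alone. DAPL1 read 3.89, 4.22, 4.38 and 4.92 in control skin and -2.02 to 0.73 (median -0.58) in scar, which made it 1 of the 12 lowest named genes (-5.00 ± 0.55, 32-fold). CDSN, corneodesmosin of the cornified layer, fell by 1.75 ± 0.14 (adjusted p = 2.32e-08). IVL, involucrin of the cornified envelope, fell by 1.33 ± 0.40, but did not pass in the deposited value table or with the slide as a fixed block. Its Cy5 signal, net of background, ran from 1481 to 5002.5 on control arrays and from 15.5 to 353.5 on early arrays, and its Cy3 signal from 194 to 312 and from 15.5 to 47, so both channels were lower on early arrays and the ratio is closer to 0 than the Cy5 change. Of 9 genes that keratinocytes turn on around a wound 4 fell and the other 5 did not pass. AREG and TGFA, both ligands of the epidermal growth factor receptor, fell by 1.93 ± 0.16 and 1.21 ± 0.13. AREG, with 1 early spot missing, was well above background on 1 of 8 early arrays and TGFA on 0, where the bound was at least 2.1-fold lower. The receptor itself, EGFR, stood at 0.63, 0.76, 0.77 and 1.11 in control skin, -0.03, 0.01, 0.08 and 0.30 in hyper scar and -0.85, -0.78, -0.76 and -0.50 in hypo scar and fell by 1.14 ± 0.28, a call lost with the slide as a fixed block.

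Skin appendages gave the lowest values of all named genes. Of 15 genes of sweat and apocrine glands 11 fell and 1 rose, with a median of -1.16. PHEROC, a secretoglobin first known from pig saliva, read 5.39, 5.51, 5.63 and 6.07 in control skin and -2.57 to 3.45 (median -2.06) in early scar. The difference was -7.00 ± 0.73 or 128-fold (adjusted p = 6.44e-07). SCGB1D1, another secretoglobin, fell from 4.58, 4.82, 4.85 and 5.21 to -2.34 to 3.39 (median -2.01) (-6.12 ± 0.73). In both genes 1 hyper array, of the left side of pig 49, stood at 3.39 or above, while the other 7 early arrays were at -0.71 or below. The same array was highest in early scar for CRISP3, a secreted glandular protein (-5.57 ± 0.71), and for the antibacterial LTF, lactoferrin (-2.63 ± 0.48). The sweat list averaged -0.41 on it, against -1.60 to -1.24 on the other early arrays and 0.50 to 0.88 on control arrays. Of the 8 early arrays 2 had PHEROC, CRISP3 and RLN2 well above background. RLN2, the hormone relaxin, fell by 3.53 ± 0.17 and the secreted carbonic anhydrase CA6 by 3.48 ± 0.22. NCALD, a calcium sensor, was the gene of the list that rose (1.08 ± 0.22, named after its value was seen).

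Of 8 hair follicle genes 5 fell and the other 3 did not pass (median -1.09). KRT31, a keratin of the hair shaft, stood at 3.88, 4.17, 4.21 and 4.46 in control skin and -0.32 to 0.26 (median 0.09) in scar, with the lowest adjusted p of the named genes (-4.15 ± 0.13, 5.53e-15). It was well above background on all 4 control arrays and on 0 of 8 early arrays. By its Cy5 signal it was at least 87.6-fold lower, against 17.7-fold from the ratio. The reference channel differed as well: the Cy3 signal of KRT31, net of background, ran from 227 to 548 on control arrays and from 4 to 19 on early arrays, although every array held the same reference RNA. For SCGB1D1 the ranges were 747 to 1072 and 385 to 551, and for ASPN 31 to 36 and 40 to 123.5. In each of these the Cy3 signal moved with the Cy5 signal, so the ratio is closer to 0 than the Cy5 change. Over the 58 features at least 3 log2 units lower in scar the median Cy3 difference was -0.35, against -0.02 over all features, and the cause was not tested. PSORS1C2, a gene of hair follicle and epidermis, fell by 2.64 ± 0.15. EDARADD, an adaptor of the ectodysplasin receptor that builds follicles, fell by 1.41 ± 0.25, and LEF1, a WNT-dependent factor of hair, by 1.28 ± 0.26.

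Lipid genes were lower. Of 21 genes of sebaceous gland and fatty acid synthesis 14 fell and the other 7 did not pass, with a median of -0.89. SCD, the desaturase that makes monounsaturated fatty acids, stood at 3.18, 3.38, 3.39 and 4.17 in control skin and -0.18 to 0.60 (median 0.18) in scar (-3.32 ± 0.19, 10-fold, adjusted p = 3e-10), and all 9 of its probes were lower. DGAT2, which makes triglycerides, fell by 2.54 ± 0.37, fatty acid synthase FASN by 1.45 ± 0.22 and the lipid droplet coat gene PLIN2 by 1.46 ± 0.21. Cholesterol synthesis genes fell in 8 of 12 cases and the other 4 did not pass (median -1.0). MSMO1, a sterol oxidase, fell by 2.17 ± 0.17 and squalene epoxidase SQLE by 1.50 ± 0.23. Of 18 adipocyte genes 10 fell and the other 8 did not pass (median -0.99). FABP4, the fatty acid binding protein of fat cells, read 3.83, 3.89, 3.93 and 4.57 in control skin and -1.21 to 2.24 (median 1.41) in scar, a wide spread around a difference of -3.07 ± 0.70 (adjusted p = 0.00163). Without the control array of the right side of pig 50, 6 of the 18 fell, and with the slide as a fixed block 4.

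Of 16 melanocyte and pigment genes 6 fell and 1 rose, with a median of -0.34. TYR, tyrosinase, the enzyme that starts melanin synthesis, stood at 2.55, 2.89, 3.12 and 3.65 in control skin, 0.23, 0.53, 0.62 and 1.20 in hyper scar and -0.66, -0.23, -0.13 and -0.07 in hypo scar. The 3 sets did not overlap, but hyper against hypo scar did not pass for TYR, as for every feature tested. The fall against control skin was 2.86 ± 0.20 (adjusted p = 5.08e-09). TYR was well above background on 4 of 8 early arrays. Its Cy3 signal, net of background, ran from 108 to 226.5 on control arrays and from 26 to 51.5 on early arrays, so both channels were lower in scar. TYRP1, another melanosome enzyme, read 1.91, 2.12, 2.73 and 2.96, 1.06, 1.07, 1.70 and 2.07 and 0.01, 0.18, 0.29 and 0.32 in the same order and fell by 1.59 ± 0.28. The melanosome transport genes MLPH (-0.72 ± 0.15) and RAB27A (-0.95 ± 0.15) fell. RAB27A was not well above background on any early array, with a bound of at least 1.86-fold lower, and MLPH did not pass without the background cap. The endothelin receptor EDNRB (-1.02 ± 0.21), named after its value was seen, fell.

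In the WNT pathway 3 of 7 fell and 1 rose, led by the inhibitor DKK2, which stood at 2.21, 2.43, 3.27 and 3.54 in control skin and 0.05 to 1.21 (median 0.52) in scar (-2.29 ± 0.37, adjusted p = 6.91e-05). The 1 WNT gene that rose did not pass without the control array of the left side of pig 50 or in 4 other fits that left out 1 early array. Of 8 genes of the FGF, EGF and PDGF axis 5 fell and the other 3 did not pass. The nerve growth factor relative BDNF fell by 1.52 ± 0.20, well above background on 1 of 8 early arrays. It was among the 2 of 6 Schwann cell and nerve genes that fell. In the IGF axis 2 of 11 rose and 1 fell. Without any 1 of the control arrays of the right side of pig 49, the left side of pig 50 or the right side of pig 50, 1 rose, and with the slide as a fixed block 1 rose and the other 10 did not pass. IGFBP4, a binding protein of insulin-like growth factors, rose by 1.39 ± 0.29, at least 2.45-fold by the Cy5 bound since it was not well above background on any control array, and the call was lost without the background cap. IGFBP3 fell by 1.20 ± 0.25 with 1 control spot missing, a call lost with the slide as a fixed block. Of 17 cell cycle genes 2 rose and 4 fell, near the background, but 1 fell without the control array of the left side of pig 50, and 1 rose without that of the right side of pig 50. CCND2, a cyclin of the start of the cell cycle, rose by 1.21 ± 0.24, and TOP2A, a topoisomerase of dividing cells, fell by 0.81 ± 0.19. Of 15 immediate early and heat shock genes 3 rose and 2 fell, near the background, with a median of 0.09. With 1 array left out 3 to 4 rose and 2 to 4 fell. In this list 1 array stood out. JUN read -0.06, 0.19, 0.30 and 0.62 in control skin and 1.12 to 3.75 (median 1.66) in scar and KLF6 0.57, 0.74, 0.97 and 1.07 and 1.75 to 3.74 (median 2.0). In both the highest value was hyper scar of the left side of pig 49, whose immediate early and heat shock list averaged 1.32 against -0.35 to 0.12 on the other early arrays. Leaving that array out, 1.41 was the difference of JUN and 1.08 that of KLF6, and both passed. KLF6 did not pass with the median over its probes.

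Ribosomal protein genes differed by less than 1 log2 unit each. Of 34 cytosolic ribosomal proteins 15 fell and the other 19 did not pass, with a median of -0.32, and with median centring 29 fell with a median of -0.90. RPS3A differed by -0.83 ± 0.13 and RPL5 by -0.82 ± 0.14, while pseudogene copies may share their probes. Net of background, the Cy3 signal of RPL5 ran from 18742 to 31860.5 on control arrays and from 35912 to 50258 on early arrays. Its Cy5 signal ran from 86750 to 141088 and from 50948.5 to 70476.5. Before normalization the channels of RPL5 thus moved in opposite directions, and the cause was not tested. For RPS3A the Cy3 ranges overlapped (17625 to 32885.5 and 27311 to 44946.5). Of 25 genes of oxidative phosphorylation 5 fell, near the background, and 1 rose, and with median centring 10 fell. In glycolysis and the hypoxia response 6 of 18 fell and the other 12 did not pass. PDK4, a kinase that shuts pyruvate out of the mitochondrion, fell by 2.66 ± 0.59, a call lost with the slide as a fixed block and without the background cap. Of 21 antioxidant and metallothionein genes 8 fell and 3 rose. PRDX6, a peroxidase of fatty acid peroxides, stood at -0.05, 0.35, 0.69 and 1.12 in control skin and -2.43 to -1.44 (median -1.66) in scar (-2.24 ± 0.21, adjusted p = 1.65e-07). Catalase CAT fell by 1.66 ± 0.27, and HSD11B1, which regenerates cortisol, by 1.96 ± 0.18. AQP3, the glycerol and water channel of keratinocytes, fell by 1.57 ± 0.26.

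By its skeletal muscle genes 1 biopsy stood apart. The 38 measured averaged 0.25 on hypo scar of the left side of pig 50, against -2.18 to -1.85 on the other early arrays and -2.42 to -2.24 on control arrays. In that array the epithelial adhesion list averaged -1.52, below the -0.33 to 0.37 of the other early arrays. Over the list 4 rose and 1 fell, below the background shares, with a median of 0.65, and without this array 5 rose and 1 fell with a median of 0.29. TNNT1, the slow muscle troponin T, rose by 1.83 ± 0.44 with early values of -2.44 to -0.21 (median -1.06). The share of muscle in each biopsy was not tested. Other counts given above moved without this array as well. Among them, those of genes that rose became 15 for macrophages and dendritic cells, 9 for endothelium, 9 for lysosome, 8 for proteases, 8 for the interferon response and 4 for complement, and those of genes that fell became 14 for ribosomal proteins, 10 for antioxidants and 7 for pigment. For lysosomal genes that fell the count became 2. The adhesion, sweat, hair follicle and sebaceous lipid counts of 14, 11, 5 and 14 were the same without it. With the slide as a fixed block they were 11, 8, 6 and 10. The sweat count was 8 without the control array of the left side of pig 50. The sebaceous lipid count was 11 without the control array of the right side of pig 50.

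**Figure D3:**
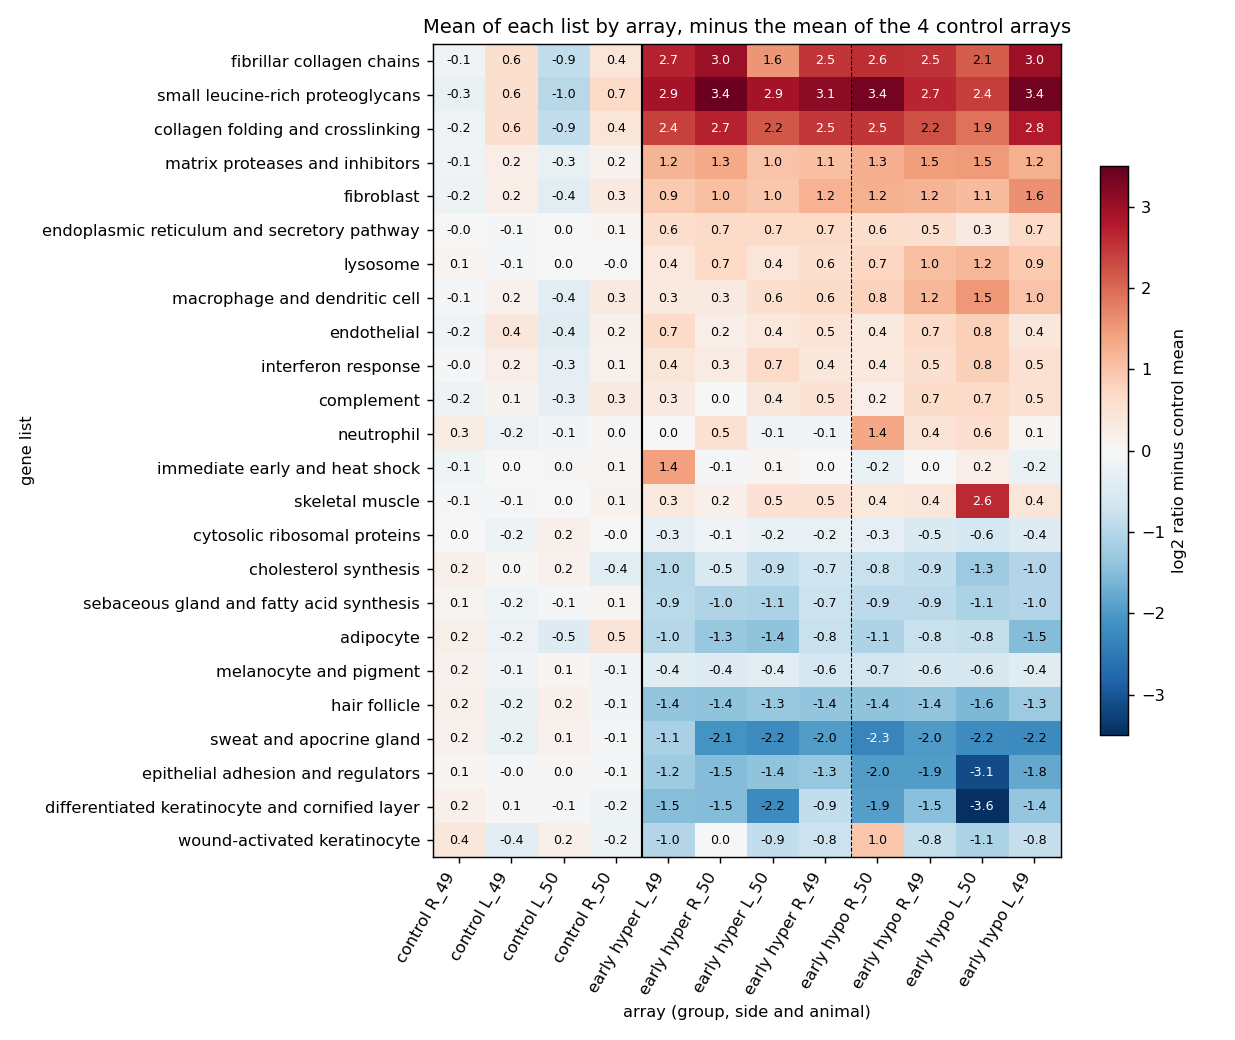
Mean log2 ratio of each gene list on each of the 12 arrays (columns), minus the mean of the 4 control arrays, as colour and number, with a solid line between control and early scar and a dashed line between hyper and hypo. The hypo array L_50 stands out in the skeletal muscle row, where its mean ratio was 0.25 before the control mean was taken off, and hyper L_49 stands out in the immediate early row (1.32) and the sweat row (-0.41).

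The early difference had the same sign in pig 49 and pig 50 for 83.9% of all tested features. The 12 highest and 12 lowest genes were chosen to have the same sign in both pigs. Among them ASPN differed by 4.48 in pig 49 and 4.62 in pig 50, KRT31 by -4.15 and -4.15, and PHEROC by -6.32 and -7.68. A test of the difference between the pigs called 0 of 18771 features (0% called by limma, 322 at an unadjusted p below 0.05). The named genes of lowest p in that test were SAL1, CLDN17, CHRM1 and VTN. CLDN17, a claudin, stood at 0.84, 1.41, 1.98 and 2.01 in control skin, the 2 lower values in pig 49, and 0.02 to 0.30 (median 0.14) in early scar of both. It was not well above background on any early array, with a bound of at least 2.46-fold lower. Its early difference was -0.97 in pig 49 and -1.84 in pig 50. The test was fitted to the 12 arrays and compares 2 control arrays per pig. Without the control array of the left side of pig 49 it called 27 features, and without that of the left side of pig 50 it called 8.

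**Figure D4:**
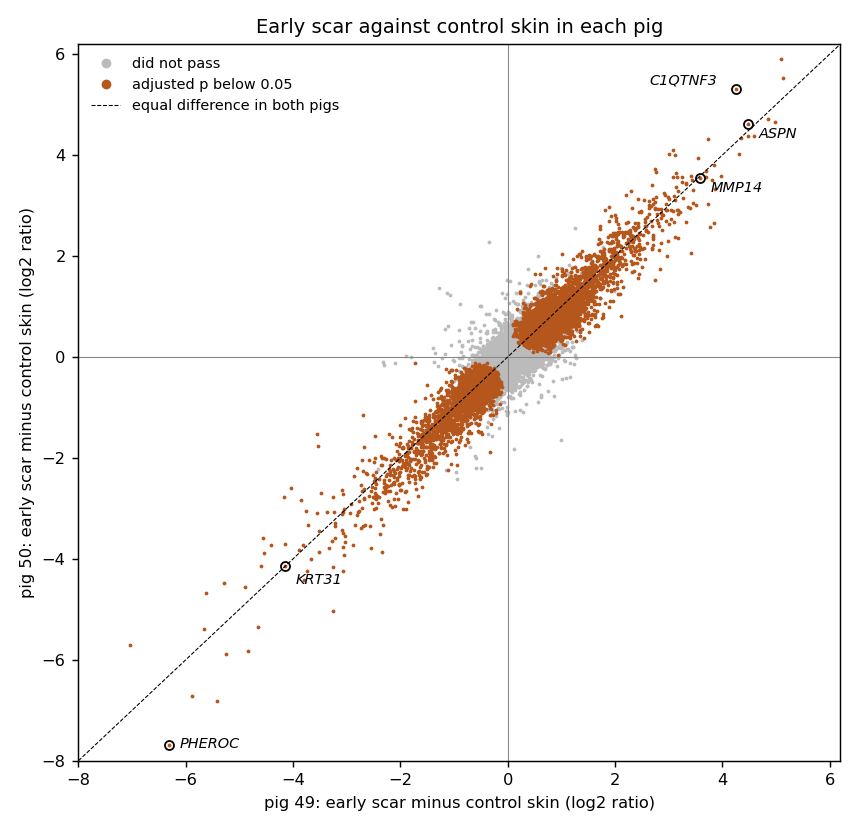
Early scar minus control skin (log2 ratio) in pig 49 (horizontal axis) and pig 50 (vertical axis) for each tested feature, coloured where adjusted p of the joint fit was below 0.05, with a dashed line of equal difference. The joint fit used both pigs to choose the coloured points, which lie at the lower left and the upper right, as for C1QTNF3 (4.25 and 5.32) and PHEROC (-6.32 and -7.68).

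Hyper and hypo scar were each set against the same 4 control arrays, so their calls are not independent. Hyper scar differed from control skin in 6190 features, 33.0% of those tested, and hypo scar in 5787, or 30.8%. ASPN was 4.41 higher in hyper and 4.69 higher in hypo scar, COL1A2 3.34 and 3.41, and SCD -3.24 and -3.41. List medians in hyper and hypo scar were 3.13 and 3.18 for fibrillar collagens, -1.45 and -2.03 for epithelial adhesion, 0.54 and 1.16 for macrophages and dendritic cells, and -0.29 and -0.40 for pigment genes. The direct test of hyper against hypo scar called 0 features (0% of 18766 in limma, 870 at an unadjusted p below 0.05). The genes with a symbol of lowest p were IGFBP2, EPCAM, TYRP1 and LMO1. TYRP1 was 1.27 ± 0.32 higher in hyper scar (adjusted p = 0.955), EPCAM 1.47 ± 0.35 higher, and LMO1, a transcriptional cofactor, 1.48 ± 0.38 higher. IGFBP2 was -2.03 ± 0.48, with -2.57, -1.90, -1.15 and -1.03 in hyper and -0.97, 0.18, 0.72 and 1.53 in hypo scar, which did not overlap. It was chosen by its low p in that test. The share of all features whose hyper and hypo arrays did not overlap was not counted. A fit to the 12 arrays alone called 13 features and array weights 8. Hyper and hypo scar shared 1 slide, where the only hypo array was that of the left side of pig 50. No count from a fit to that slide is given. Without hypo scar of the left side of pig 49 the count was 2.

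Early scar was also set against the 8 later sham scars, which came from the left side alone. In limma's fit 2209 features were higher in early scar, 11.8% of those tested, and 2120 lower, 11.3%, with a median of -0.04. The balance depended on the scaling: median centring gave 4201 higher and 504 lower, the deposited values 2765 and 1709, and the slide as a fixed block 1362 and 394. The count rested on settings too: 118 features passed without the background cap, 108 higher and 10 lower, and 398 with left side arrays alone. Which of the genes named here and in the next paragraph were among these was not checked. The count was 2561 with animal and side as the block. Of the 8 highest genes, SHAS2, ASPN and COL1A2 were in the matrix lists. C1QTNF3 stood at 0.39 to 5.70 (median 1.97) on the later arrays and was 3.52 ± 0.58 higher in early scar (adjusted p = 0.000435). STEAP1 was 3.15 ± 0.51 higher. SHAS2 read 0.30 to 2.76 (median 0.70) on the later arrays and 0.31 to 1.14 on control arrays, and was 2.54 ± 0.33 higher in early than in later scar. ANGPTL2 (2.38 ± 0.36), PTN (2.69 ± 0.48), PHACTR3 (2.49 ± 0.45), ASPN (2.15 ± 0.42) and COL1A2 (2.14 ± 0.54) were higher as well. All 5 collagen folding genes, the 3 proteoglycans and 13 of 20 secretory pathway genes were higher in early than in later scar.

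Epithelial genes were among the lowest at the other end. CCL27 (-2.41 ± 0.30, adjusted p = 0.000105) was lower in early scar and stood at 2.07 to 5.62 (median 4.65) on the later arrays against 4.07 to 4.41 on control arrays. MT1A, a metal-binding metallothionein (-1.74 ± 0.37), the polarity gene LRRC1 (-1.47 ± 0.25), GATA3 (-1.47 ± 0.33), MAL2 (-1.44 ± 0.37) and DIO2, which activates thyroid hormone (-1.39 ± 0.21), were lower too. Of the 16 adhesion genes 7 were lower in early than in later scar and the other 9 did not pass. Of the appendage genes, 1 of 8 hair follicle and 2 of 15 sweat gland genes were lower in early scar, near the 11.3% of all features. In the sweat gland list 1 gene was higher. KRT31 (-0.21 ± 0.10, adjusted p = 0.147), PHEROC (-0.25 ± 0.60, adjusted p = 0.791), TYR (0.12 ± 0.17, adjusted p = 0.636) and SCD (-0.10 ± 0.16, adjusted p = 0.679) did not pass. On the later arrays KRT31 stood at -0.12 to 0.85 (median 0.15), with every value below the control range of 3.88 to 4.46. The 28 macrophage genes had a median of -0.08 and did not pass in this comparison. Of 31 interferon genes 9 were lower in early scar and 1 was higher.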

How the data were processed

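RNA of each biopsy (Cy5) was hybridised beside a universal pig reference RNA (Cy3) on 28 Agilent two-colour arrays with no dye swap, per the labels. The deposited scanner files hold spot intensity on a linear scale, background-subtracted signals and a log10 ratio made by Agilent Feature Extraction 10.7.1.1, per the file headers. The deposited value table holds, per probe, the log2 of that scanner ratio of red over green within 0.001 for at least 99.97% of probes on each array, with column medians of 0.13 to 0.26, so it was not centred. Gene symbols came from RefSeq transcript accessions (Sscrofa11.1 table), which gave a symbol to 6816 of all 43603 probes, before the filter that kept 24510.

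Median spot intensities were background-corrected in limma 3.58.1 (R 4.3.3) by normexp with an offset of 50, after each array's local backgrounds were capped at their 99th percentile, a step the deposited processing does not have. Ratios were then loess-normalized within each array. Spots flagged as outliers were set to missing (0.53% of values on the 12 arrays), and probes well above background in Cy5 on at least 4 of 28 arrays were kept. The brightest probe stood for a gene or accession. The model held 11 group means and the animal as a fixed block, so pressure-treated arrays entered the fit and nothing else. The fit was tested on simulated data. At least N-fold bounds set the bright group's Cy5 mean against the lowest well-above-background signal or the dim probe's own, whichever was higher. The precision is limited by the 4 control arrays.

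The pairing of same-animal arrays comes from the titles. Deviations from group means correlated at a median of 0.06 between groups for arrays of the same animal, -0.04 for arrays of different animals and 0.02 to 0.26 for arrays of the same animal and side.

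The members and gene lists were chosen with earlier results of these data known. Named genes were the 12 highest and 12 lowest called genes with the same sign in both animals, the 4 of lowest p in each list with at least 3 measured genes and, in the other comparisons, up to 8 highest and 8 lowest called genes or, where none was called, the 4 of lowest p. Not every gene the rule selects is described. Some of them are not reported here. Slide, background, normalization, filter, probe, block and array alternatives were run. Of the 7 slides of the series 2 held both control and early arrays, so slide and scar are partly confounded. With the slide as a fixed block 6332 features differed between early scar and control skin, 4213 higher and 2119 lower.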

Additional observations from a re-analysis of the deposited data

Results flagged for a closer look

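In each group of 4 arrays the highest or lowest array was set against the gap to the next, for 593 sets of values of named genes and list means. In 31 of them 1 array stood far from the other 3. Chance gives about 1 in 20, so 31 of 593 is close to the chance rate. A single entry below is therefore not by itself a sign that an array differs.

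Hypo scar of the left side of pig 50 stood apart most often. The mean of its skeletal muscle list was 0.25 against -1.92 for the next array, and that of its glycolysis and hypoxia list -0.31 against -0.58. Its epithelial adhesion mean was lowest at -1.52, against -0.33, with MAL2 at -3.57 against -1.21. On the same array CTGF was lowest at 2.79, RPN1 lowest at -0.35 and ANGPT2 highest at 1.96.

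Hyper scar of the left side of pig 49 had the highest immediate early and heat shock mean, 1.32 against -0.02 for the next, the highest CCL27 (3.18) and CLDN4 (0.35) and the lowest CTSA (-0.24). Hyper scar of the left side of pig 50 had the highest HAS3 (0.99) and CCND2 (1.23), the lowest THY1 (0.85) and the lowest myofibroblast, smooth muscle and pericyte mean (-0.92). Hyper scar of the right side of pig 49 had the lowest TGFA (-0.52).

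Among the other hypo arrays, that of the left side of pig 49 was lowest for IL1A (0.044), CAT (-4.21) and EPHA4 (-0.39) and highest for LEF1 (1.22). That of the right side of pig 49 was lowest for RLN2 (-0.015) and highest for the antioxidant and metallothionein mean (-1.40). That of the right side of pig 50 had the highest wound-activated keratinocyte mean, 0.84 against -0.93 for the next.

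In control skin the left side of pig 50 was lowest for CDH11 (0.063), for the hyaluronan and large proteoglycan mean (0.45) and for the IGF axis mean (-0.26), and highest for PLIN2 (2.13). The right side of pig 50 was lowest for BMP2 (1.17), MSMO1 (0.95) and SQLE (0.69), and the right side of pig 49 highest for FABP4 (4.57).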

How the results depend on the processing

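Of 4888 values of called named genes under the alternatives 4790 kept their direction and stayed past the threshold, 97 of all named values lost the call, most often without the background cap or in pig 50 alone, and 104 of 1551 list medians moved by more than 0.25. The count of early scar against control skin ran from 6019 (median centring) to 9018 (array weights), apart from 2837 in pig 50 alone, and from 5480 to 7340 with 1 array left out. It was 7479 in the deposited value table, 7235 with no replicate block and 7153 with animal and side as the replicate block. Pig 50 alone gave 1865 for hyper and 2104 for hypo scar, and leaving out 1 array gave 4593 to 6163 and 4235 to 5728. Hyper against hypo scar gave 13 with the 12 arrays, 699 on slides with both groups, 8 with array weights, 2 in pig 49 alone and 0 to 2 with 1 array left out. The difference between pigs gave 1 without the filter on dim probes and 0 to 27 with 1 array left out. Early against later scar gave 118 without the background cap, 2561 with animal and side as the block, 1756 with the slide as a fixed block, 488 on slides with both groups, 1197 in pig 50 alone, 398 on the left side alone and 3318 to 4406 with 1 array left out. Without the background cap COL5A3 turned to -0.14 and CD247 to 0.13. VTN turned to -0.10 with median centring and -0.16 in pig 50 alone, and IGFBP2 to -0.0091 in pig 49 alone. The cause of these changes was not tested. Fits on slides with both groups were not run for hyper scar against control skin or for the difference between pigs. That of hyper against hypo scar held 1 hypo array, so its count is not given. Leaving out early hypo left of pig 50, and each array in turn for named genes and lists, was chosen after seeing the data. Signal over background limits genes that were dim in a group: 102 called features were dim on all early arrays and well above background on all control arrays, and 140 the reverse.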

Other observations

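Of 5 measured guidance genes, which steer axons and vessels, 1 rose and 4 fell, against 19.2% and 19.9% of all genes with a symbol. The count of falls was 3 with the slide as a fixed block. It was also 3 without hypo scar of the left side of pig 50 or without the control array of the left side of pig 49. UNC5B, a netrin receptor, read 1.0, 1.11, 1.42 and 1.49 in control skin and -0.08 to 0.68 in early scar and fell by 1.03 ± 0.16 (adjusted p = 3.62e-05, limma). The ephrin ligand EFNA1 (-0.69 ± 0.12, dim on all early arrays, at least 1.59-fold lower) and the ephrin receptor EPHA4 (-0.87 ± 0.17) fell, and the semaphorin SEMA3B rose by 0.91 ± 0.18. Of 9 bone, cartilage and tendon genes 3 rose and 3 fell. SOX9, a transcription factor of cartilage and hair follicle, fell by 0.89 ± 0.19 but was not well above background on any early array, with a bound of at least 1.8-fold lower. The receptor PTH1R rose by 0.94 ± 0.27. The tendon gene TNMD was -1.31 ± 0.35, a call lost on slides with both groups. Of 17 retinoid, steroid and vitamin D genes 2 rose and 5 fell, with 3 to 5 falling when 1 array was left out and 4 rising without hypo scar of the left side of pig 50. Among those that fell was RDH16, a retinol dehydrogenase, at -1.27 ± 0.29, a call lost without the background cap. CYP24A1, which degrades active vitamin D, was 1.02 ± 0.22, a call lost without the background cap and with median centring. Net of background, its Cy5 signal ran from 85305 to 170596 on control arrays and from 96009.5 to 164394 on early arrays. Its Cy3 signal ran from 233790 to 317224 and from 203720 to 293391, so before normalization the groups overlapped in both channels. Of 10 aquaporins and ion transport genes 1 rose and 4 fell, and the rise was lost without the control array of the right side of pig 49, with the sweat gland water channel AQP5 at -0.89 ± 0.17. Of 4 hedgehog and Notch genes 1 rose, NOTCH4 at 0.48 ± 0.15, a call lost without the control array of the left side of pig 50. Of 9 signals acting on melanocytes 2 rose and 3 fell, and 1 rose in 7 of the 12 fits that left out 1 array.

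In the reference channel, where all arrays held the same RNA, the median Cy3 difference of early minus control arrays was 0.15 over the 57 features at least 3 log2 units higher in scar. Over the 58 at least 3 log2 units lower it was -0.35, with quartiles of -1.43 and -0.09. The cause was not tested.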
